A study of Rattus norvegicus with 20 samples.

Results

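Of the 719 rat microRNAs (miRNAs) on a kidney array, 3 with weak signals are described here: miR-465-5p and, on other chromosomes, miR-489-3p and miR-551b-5p. They had been picked from these same arrays because they were near the detection limit in vehicle kidneys and brighter after aristolochic acid I (AAI), a plant toxin that damages kidney tubules and DNA. Their differences from vehicle are therefore descriptions, given with no p-value. Every kidney came from a male Wistar rat of 80 to 100 g. Treated rats were injected intraperitoneally with 40 mg of AAI per kg, and kidneys were taken from 5 rats at each of 3 times, day 2, 4 or 6. The 5 control rats were injected with the vehicle, water with polyethylene glycol (PEG400), and their kidneys were all taken at day 6. No vehicle kidney of an earlier day is among the arrays, so day of collection and treatment cannot be told apart in those comparisons. Each kidney RNA was hybridized to 1 single-colour array, giving 20 arrays. In whole kidney RNA, fewer cells of a type and less RNA per cell cannot be told apart.

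A miRNA is a short RNA cut from a hairpin precursor, and it pairs with target messenger RNAs mainly through its seed, the bases near its 5′ end. Either arm of the hairpin can yield the mature product, named 5p or 3p. In mouse, miR-465 belongs to a cluster of X-linked miRNAs best known from testis. miR-489 lies with miR-653 inside the gene of the calcitonin receptor, Calcr, and in mouse muscle stem cells it is known as a miRNA of the quiescent state. miR-551b lies inside Egfem1, a gene for a protein with EGF-like domains.

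The mature sequences, from RefSeq (assembly GRCr8), show that the members do not form a seed family. Capitals mark the seed, bases 2 to 8.
rno-miR-465-5p: uAUUUAGAacggugcuggugug
rno-miR-551b-5p: gAAAUCAAgcuugggugagaccu
rno-miR-489-3p: aUGACAUCacauauauggcagc
Each seed was shared with 0 other mature miRNAs among the 693 in that table. The mature miR-465-5p maps to chrX:150488211-150488232, miR-551b-5p to chr2:115917751-115917773 and miR-489-3p to chr4:32648063-32648084, all on the minus strand of GRCr8. Within 30 kb of Mir465 the annotation lists 9 other miRNA genes, near Mir489 it lists 1 (Mir653), and near Mir551b it lists 0. Mir465 lies inside the span of a long non-coding RNA gene, Mir551b inside Egfem1 and Mir489 inside Calcr; whether in an exon or an intron was not examined.

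The hairpins show which arm each measured miRNA comes from, with the member's arm in capitals.
Mir465: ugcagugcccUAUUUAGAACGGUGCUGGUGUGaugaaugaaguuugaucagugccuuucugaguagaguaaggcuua
Mir551b: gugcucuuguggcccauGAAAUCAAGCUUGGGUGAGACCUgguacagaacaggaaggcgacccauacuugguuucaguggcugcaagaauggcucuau
Mir489: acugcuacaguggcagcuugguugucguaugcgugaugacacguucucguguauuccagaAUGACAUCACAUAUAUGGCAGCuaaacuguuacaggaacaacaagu
miR-465-5p and miR-551b-5p come from the 5′ arm, and miR-489-3p comes from the 3′ arm.

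The array reads the members through 8 probes of graded length, and the longest probe of each, from the deposited files, shows which bases the signals rest on. Capitals mark the bases it has beyond the shortest probe of the same miRNA, and each probe pairs with the 3′ end of the miRNA.
miR-465-5p probe: cacaccagcaccG
miR-551b-5p probe: aggtctcacccaagC
miR-489-3p probe: gctgccatatatgtGAT
The probes shown pair with bases 10 to 22 of miR-465-5p, 9 to 23 of miR-551b-5p and 6 to 22 of miR-489-3p, so that of miR-489-3p reaches into the seed and the others do not.
Per the deposited files these probes lie at chrX:152868900-152868912, chr2:114095903-114095917 and chr4:28518325-28518341 of the older rn4 build. miR-465-5p was read by probes of 12 and 13 bases and miR-551b-5p by probes of 14 and 15 bases, each with 10 spots per array. miR-489-3p was read by probes of 14, 15, 16 and 17 bases, each with 5 spots per array. No other mature miRNA of the table matched a whole probe (0 for each probe). The longest run that another miRNA shared was 11 bases, between the 13-base probe of miR-465-5p and miR-667-5p, and it was 8 bases for the probes of the other members. The signal of miR-667-5p was -0.305 to 5.69 in vehicle and 3.61 to 12.6 at day 2, and it was detected on 0 of those 10 arrays. At day 4 it was 17.36, 60.3, 13.2, 2.25 and 3.90 on arrays 1 to 5, where miR-465-5p was at 25.4, 33.6, 26.2, 16.8 and 29.8. At day 6 it was 7.72, 4.56, 51.9, 51.2 and 4.47, where miR-465-5p was at 20.8, 23.4, 34.5, 38.5 and 18.5. Both were thus highest at day 6 on arrays 3 and 4 and at day 4 on array 2, and whether miR-667-5p adds to the signal of these probes was not tested.

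Of the 719 miRNAs, 250 to 328 were detected per array, 231 on all 20 arrays and 362 on none. The kidney label was checked with 10 kidney-enriched miRNAs, of which 9 were detected on every array; the exception, miR-215, was detected on 0. The 75th percentile signal, to which levels were scaled, was 309 to 592 arbitrary units. The arrays sat on 3 slides, and slide was nearly the same as group. Slide 3 held 4 vehicle arrays. Slide 2 held vehicle array 5, all day 2 arrays and day 4 arrays 1 and 2, and slide 1 held the remaining 8.

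miR-465-5p was at the edge of detection in vehicle kidneys and was detected on every AAI array. Its signal, the background-subtracted intensity summed over its probes, was 9.32, 9.69, 4.84, 3.11 and 8.78 on vehicle arrays 1 to 5. The scanner software called it detected on array 1 alone. At day 2 it was 14.1, 16.8, 30.2, 24.3 and 38.6 on arrays 1 to 5, all called detected. Day 2 kidneys thus spread widely, and the dimmest still lay above the brightest vehicle kidney. At day 4 the signals were 25.4, 33.6, 26.2, 16.8 and 29.8. At day 6 they were 20.8, 23.4, 34.5, 38.5 and 18.5. The 3 AAI groups overlapped one another and did not overlap the vehicle group. The group means were 7.15 ± 2.98 (SD, n = 5) in vehicle and 24.8 ± 9.97, 26.4 ± 6.24 and 27.1 ± 8.84 at day 2, 4 and 6.

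miR-551b-5p was detected on 2 of 5 vehicle arrays and on all 15 AAI arrays. Its signal was 7.68, 12.5, 17.0, 10.6 and 7.57 on vehicle arrays 1 to 5, of which arrays 2 and 3 were called detected. At day 2 it was 29.0, 25.7, 35.6, 35.2 and 27.1. Every day 2 kidney was above every vehicle kidney, and the group was tighter than for miR-465-5p. At day 4 the signals were 38.2, 27.8, 25.8, 35.5 and 32.6. At day 6 they were 23.9, 31.3, 77.5, 47.0 and 37.4. Day 6 array 3 was the brightest of all 20 and array 1 of that day the dimmest of the 15 AAI arrays. The means were 11.1 ± 3.90 in vehicle and 30.5 ± 4.64, 32.0 ± 5.19 and 43.4 ± 20.9 at day 2, 4 and 6 (SD, n = 5 each).

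miR-489-3p behaved differently in detection: the software called it detected on all 20 arrays, vehicle included, although its signal was also low. It was 6.80, 6.27, 8.04, 8.90 and 8.48 on vehicle arrays 1 to 5. At day 2 it was 13.6, 13.2, 18.4, 10.2 and 9.18. The dimmest day 2 kidney was close to the brightest vehicle kidney. At day 4 it was 12.4, 15.8, 15.9, 15.6 and 16.4, a narrow range wholly above vehicle. At day 6 it was 17.1, 8.78, 14.4, 14.1 and 13.5. Day 6 array 2, the array with the lowest 75th percentile, lay inside the vehicle range before scaling and above it after scaling (log2 level -5.14 against at most -5.30). After scaling, day 2 array 5 (-5.66) lay inside the vehicle range. The means were 7.70 ± 1.12 in vehicle and 12.9 ± 3.61, 15.2 ± 1.61 and 13.6 ± 3.03 at day 2, 4 and 6 (SD, n = 5 each).

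**Figure D1:**
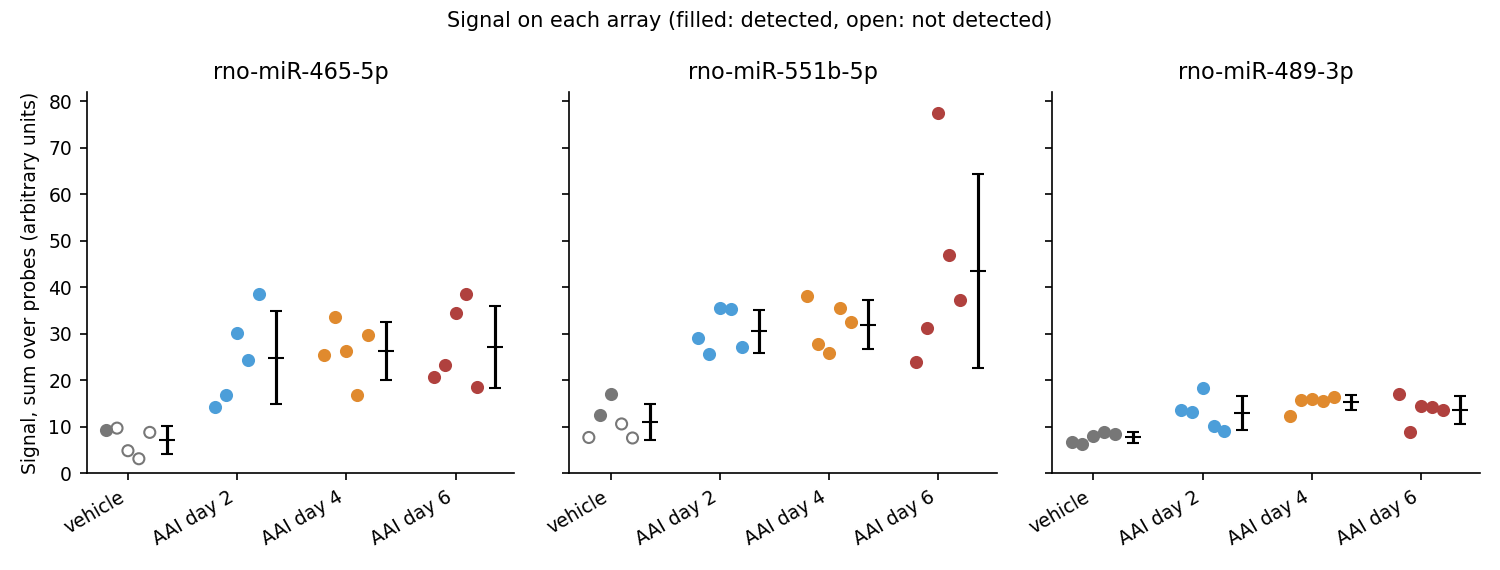
Signal of the 3 miRNAs on each array, in arbitrary units, by group; filled points were called detected, open points were not, and the bar beside each group is the mean with its SD (n = 5). In vehicle miR-465-5p and miR-551b-5p sit at 3.11 to 17.0 and after AAI at 14.1 to 77.5, while miR-489-3p ranges from 6.27 to 18.4.

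For the comparison with vehicle the signal was divided by the array's 75th percentile and put on a log2 scale, on which 1 unit is a doubling. miR-465-5p was at -5.80 ± 0.82 in vehicle and at -4.26 ± 0.50, -4.19 ± 0.31 and -4.18 ± 0.50 at day 2, 4 and 6 (SD, n = 5 each). The differences from vehicle were 1.53, 1.61 and 1.62, each with a standard error of 0.34. miR-551b-5p was at -5.11 ± 0.36 in vehicle and differed by 1.22, 1.22 and 1.55, each ± 0.27. miR-489-3p was at -5.58 ± 0.23 in vehicle and differed by 0.42, 0.63 and 0.43, each ± 0.13. The median difference of the 3 members was 1.22, 1.22 and 1.55, which is the value of miR-551b-5p. It stood beside a median of -0.04, -0.07 and -0.11 over all 262 tested miRNAs. Without scaling that median over all tested miRNAs moved to 0.25, 0.29 and 0.26. The unscaled differences were 1.83, 1.98 and 1.99 for miR-465-5p, 1.52, 1.58 and 1.92 for miR-551b-5p, and 0.71, 0.99 and 0.80 for miR-489-3p.

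The AAI groups alone brought miR-465-5p and miR-551b-5p into the 262 fitted miRNAs, since vehicle kidneys did not meet the detection filter for them. Counts of members past the threshold therefore support nothing and stand beside the background only. In the limma fit 2 of the 3 members passed an adjusted p of 0.05 at day 2, against a background of 1.53% of tested miRNAs called higher. The member that did not pass was miR-489-3p. At day 4 and at day 6 all 3 passed, against backgrounds of 2.29% and 7.25% called higher. With slide as a fixed block the counts of members at day 2, 4 and 6 fell to 0, 1 and 1. Of all 262 tested miRNAs, 0, 10 and 30 were then called higher. With slide as a random effect the counts of members fell to 0, 0 and 2, where 0, 3 and 14 of 262 were called higher. All 5 AAI kidneys lay above all 5 vehicle kidneys for 2, 3 and 3 members on the log2 scale at day 2, 4 and 6, where 1.91%, 3.05% and 4.2% of tested miRNAs did so. These counts follow from how the members were picked, and the 3 comparisons share the same vehicle arrays. The call at day 2 rested on single arrays: for miR-465-5p it was lost without vehicle array 3 or 4 or without day 2 array 4 or 5. For miR-551b-5p it was lost without vehicle array 1 or 5 or without day 2 array 4. For miR-489-3p the call at day 6 was lost without vehicle array 2 or 3.

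Because the vehicle values lay so low, folds of single probes are given as lower bounds only, and several probes gave none. A probe was taken as well above background on an array when the software marked over 50% of its spots so. On that measure no probe of miR-465-5p or of miR-551b-5p was well above background on any vehicle array (0 of 5). The lowest signal of any probe well above background on a vehicle array was 7.88 to 11.1, and the vehicle side of each fold was raised to it. The 13-base probe of miR-465-5p was then at least 1.17-, 1.19- and 1.15-fold higher at day 2, 4 and 6. Its 12-base probe gave no bound above 1, although its measured mean rose from 2.73 ± 1.45 in vehicle to 9.81 ± 4.13, 11.1 ± 3.33 and 12.1 ± 4.84. The 14-base probe of miR-551b-5p was at least 1.49-, 1.41- and 1.83-fold higher, and its 15-base probe at least 1.02-, 1.097- and 1.32-fold higher. These bounds limit the vehicle side only, since the AAI side used measured values. At day 2, 4 and 6 the 12-base probe was well above background on 1, 2 and 2 of 5 AAI arrays and the 13-base probe on 3, 4 and 5. The 14-base probe of miR-551b-5p was so on 5 of 5 at each day, and its 15-base probe on 2, 3 and 4. The 17-base probe of miR-489-3p was well above background on 1 of 5 vehicle arrays and on 2, 3 and 3 of 5 arrays at day 2, 4 and 6. Its 14-, 15- and 16-base probes were so on 0 of 5 arrays in every group, and no probe of miR-489-3p gave a bound.

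Both probes of miR-465-5p and both of miR-551b-5p moved together, whereas miR-489-3p was read almost wholly by 1 probe. The longer probe of each pair holds every base of the shorter, so the probes are not independent readings. The 12-base probe of miR-465-5p carried 40.1%, 43.6% and 47.1% of the difference from vehicle at day 2, 4 and 6, and the 13-base probe the rest. All 5 AAI arrays of each day lay above all vehicle arrays on both of its probes. The 14-base probe of miR-551b-5p carried 62.0%, 57.4% and 58.1% of the difference, again with no overlap on either probe. Such separation follows from how the members were picked, and its share among all 1730 probes was not counted. On day 6 array 3 both probes of miR-551b-5p were brightest, at 42.2 and 35.4.

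In miR-489-3p the 17-base probe read 7.65, 8.18, 8.13, 7.52 and 10.2 on vehicle arrays 1 to 5. It read 10.8, 12.2, 16.2, 10.71 and 9.53 at day 2, then 9.96, 11.5, 14.5, 13.2 and 13.1 at day 4, and 12.8, 9.09, 12.3, 11.7 and 11.8 at day 6. On each day 4 of 5 AAI arrays lay above all vehicle arrays on this probe, and vehicle array 5 stood at the overlap. The ratio of its group means to vehicle was 1.42, 1.49 and 1.38. The 16-base probe gave a mean of 1.46 ± 1.02 in vehicle, then 2.59 ± 0.757, 3.08 ± 0.764 and 2.62 ± 0.687 at day 2, 4 and 6. The group means of the 15-base probe were -0.119 to 0.830, and those of the 14-base probe were below 0 in every group, at -1.98 ± 0.245 in vehicle and -1.14 ± 0.183 at day 4. The 17-base probe held 68.1%, 54.5% and 53.9% of the summed difference at day 2, 4 and 6, and the other probes, with little signal of their own, held the rest.

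**Figure D2:**
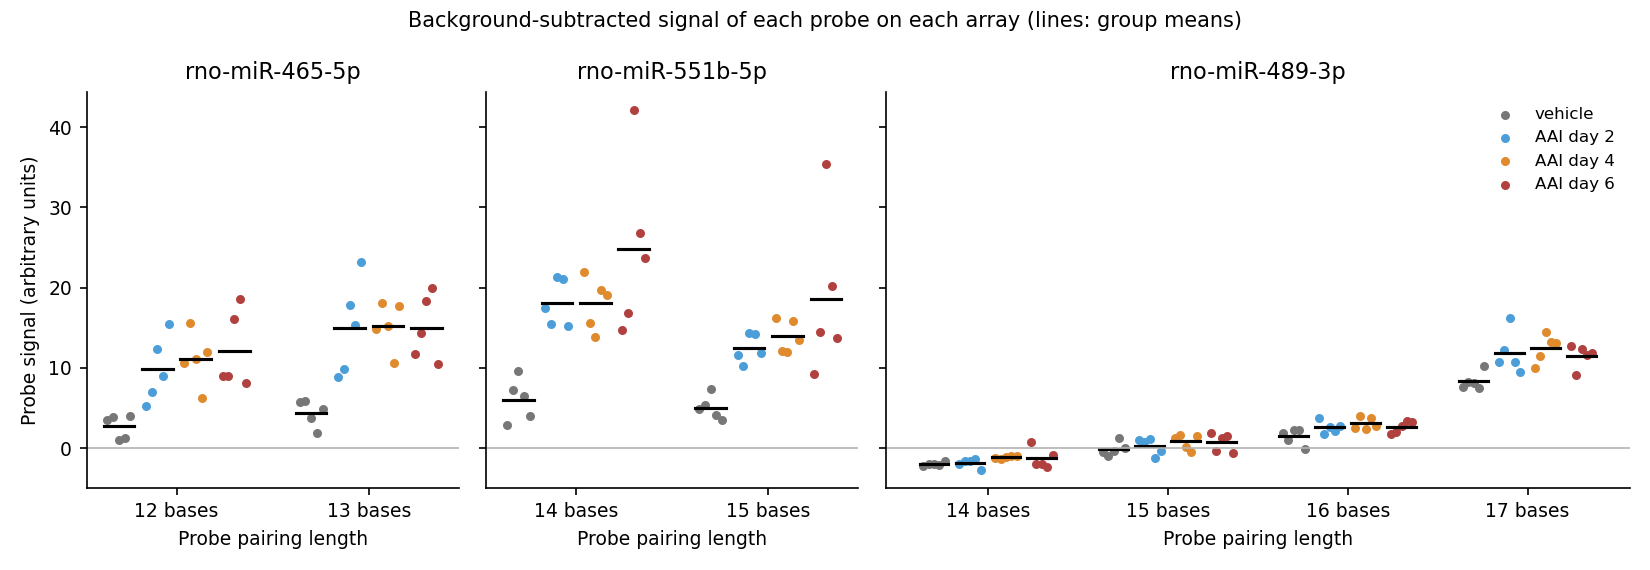
Background-subtracted signal of each of the 8 probes on each array, in arbitrary units, by the number of bases that pair with the miRNA; colours are groups and black lines are group means. Both probes of miR-465-5p and of miR-551b-5p separate vehicle from AAI arrays, and for miR-489-3p only the 17-base probe stands clear of 0, with vehicle array 5 at 10.2 among the AAI values.

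The same difference was present in the spots before any subtraction for miR-465-5p and miR-551b-5p, and hardly for miR-489-3p at day 2. The mean raw spot intensity of miR-465-5p was 35.8 ± 1.04 in vehicle and higher by 8.03, 10.4 and 12.2 at day 2, 4 and 6. For miR-551b-5p it was 37.6 ± 3.005 in vehicle and higher by 9.15, 11.5 and 18.4. For miR-489-3p it was 34.5 ± 1.79 in vehicle and higher by 0.268, 2.11 and 2.99. The background that the software subtracted at the same spots differed from vehicle by -0.644, 0.836 and 2.18 for miR-465-5p and by -0.347, 1.24 and 2.49 for miR-551b-5p. For miR-489-3p it differed by -1.01, 0.292 and 1.59, so at day 2 most of its difference from vehicle lay in the lower background subtracted.

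Spot flags followed the same order. The share of miR-465-5p spots marked positive and significant was 72% in vehicle and 99% to 100% in the AAI groups, and the share well above background was 0% in vehicle and 45%, 68% and 68% at day 2, 4 and 6. For miR-551b-5p the share well above background was 7% in vehicle and 69%, 81% and 87%. For miR-489-3p it was 6% in vehicle and 12%, 16% and 13%. None of the 1200 member spots was saturated (0), and 33 were flagged as outliers.

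Local background around the member spots and array-wide measures of weak signal were not themselves used to pick the members. The background subtracted is a term of each member's signal, so its comparison is not independent of that choice. All were compared with vehicle by two-sided exact permutation tests, where 5 arrays against 5 cannot give a p below 0.00794. The mean local background around the member spots was 16.8 ± 2.12 in vehicle, and the AAI groups differed by -0.293, 1.22 and 1.63 at day 2, 4 and 6 (adjusted p = 0.786, 0.429 and 0.429 over the 3 exact tests). Within slide 2, against vehicle array 5 alone, the differences were 2.51 at day 2 and 4.36 at day 4. The background subtracted at all member spots differed by -0.667, 0.790 and 2.08 from 32.2 ± 1.58 (adjusted p = 0.452, 0.452 and 0.286, exact). The median signal of the 362 never-detected miRNAs differed by -0.05, 0.229 and 0.774 from -1.65 ± 0.407 (adjusted p = 0.881, 0.643 and 0.286, exact). That set was taken over all arrays, AAI arrays included. A weak miRNA that rose to detection after AAI was therefore not in it. The mean negative control signal differed by -0.218, -0.419 and -0.387 from 1.76 ± 0.574 (adjusted p = 0.508 for each, exact). None of these 12 differences passed the threshold, which does not show that the measures were equal.

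**Figure D3:**
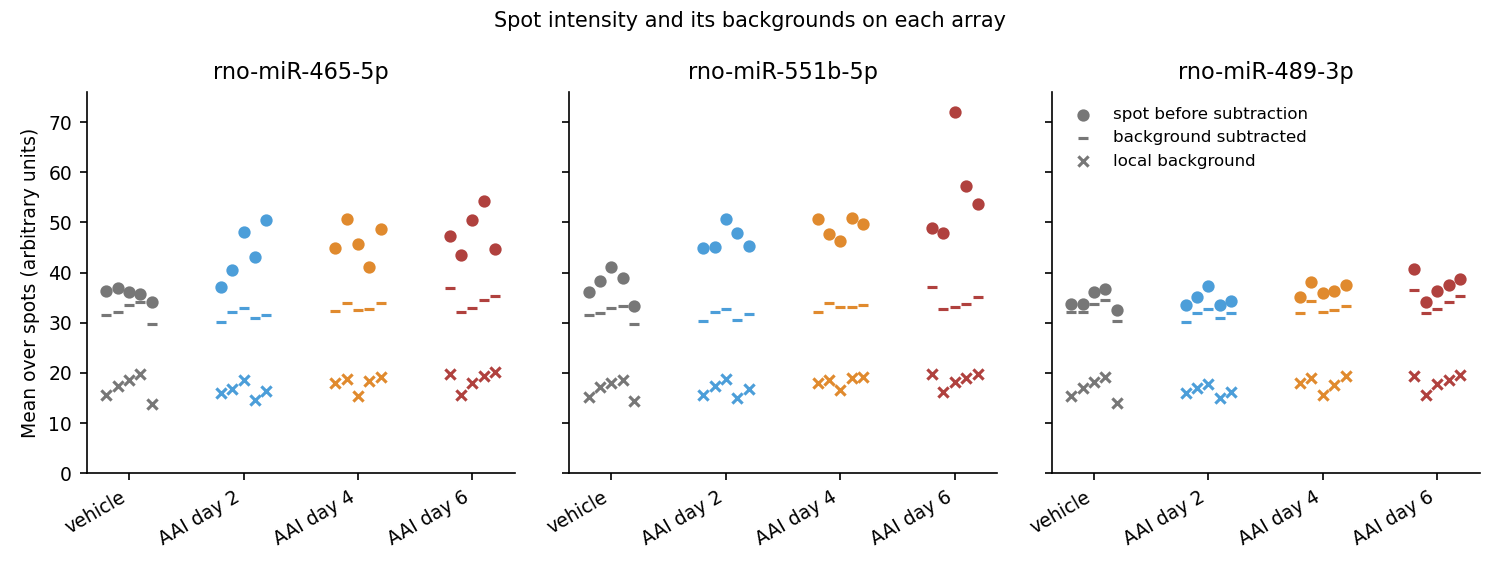
Mean over the spots of each miRNA on each array, in arbitrary units: circles are the intensity before subtraction, dashes the background the software subtracted, and crosses the local background around the spots. The circles of miR-465-5p and miR-551b-5p move away from the dashes in AAI kidneys, while those of miR-489-3p stay within a few units of them.

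Between AAI days no member passed the threshold. In limma 0 of 3 members were called for day 4 against day 2, day 6 against day 2 or day 6 against day 4, and 0%, 11.1% and 0.763% of all tested miRNAs were called there in either direction. This fit left slide out, and day 2 and day 6 shared no slide. With slide as a fixed block 34, 95 and 1 of all 262 were called in these contrasts, in that order, and again 0 members. Day 2 and day 4 arrays took part in picking the members, so these contrasts are not wholly independent of that choice. miR-465-5p differed by 0.08 from day 2 to day 4 (95% interval -0.63 to 0.79, adjusted p = 0.999), and by 0.01 from day 4 to day 6 (-0.70 to 0.72, adjusted p = 0.992, limma). From day 2 to day 6 it differed by 0.09 (-0.62 to 0.80, adjusted p = 0.898, limma). miR-551b-5p was 0.33 higher at day 6 than at day 2 (-0.24 to 0.89, adjusted p = 0.478, limma) and than at day 4 (-0.24 to 0.89, adjusted p = 0.827). Its difference between day 4 and day 2 was -0.0016 (-0.57 to 0.56, adjusted p = 0.999, limma). miR-489-3p was 0.21 higher at day 4 than at day 2 (-0.07 to 0.49, adjusted p = 0.694, limma). Its day 6 value differed by -0.20 from day 4 (-0.47 to 0.08, adjusted p = 0.695) and by 0.01 from day 2 (-0.27 to 0.29, adjusted p = 0.965, limma). The intervals, from the fit without slide, leave room for changes between days of up to 0.80 for miR-465-5p, 0.89 for miR-551b-5p and 0.49 for miR-489-3p.

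The arms opposite to the members were never detected. miR-465-3p had a mean signal of -2.72 ± 0.313 in vehicle and -3.13 ± 1.04, -2.81 ± 0.932 and -2.54 ± 0.906 at day 2, 4 and 6. miR-551b-3p was at 1.42 ± 1.05 in vehicle and at 1.77 ± 0.642, 1.16 ± 0.512 and 1.79 ± 0.768. miR-489-5p was at -5.09 ± 0.5998 in vehicle and at -5.33 ± 0.845, -4.86 ± 0.372 and -4.31 ± 0.581. Each was detected on 0 of 20 arrays, so only the named arm of each hairpin gave a measurable signal here, and different probes set each arm's limit.

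Genomic neighbours of the members were mostly undetected too. miR-653-5p, which shares the Calcr locus with miR-489, was detected on 0 vehicle arrays and on 1, 3 and 2 of 5 arrays at day 2, 4 and 6. Its signal was 5.59 ± 0.958 in vehicle and 6.63 ± 1.81, 8.12 ± 1.68 and 8.59 ± 3.0, and it did not reach the detection needed for a test. The other arm, miR-653-3p, was detected on 0 arrays. Of 22 listed miRNAs of the X-linked cluster of miR-465, all on the array, 2 were detected anywhere and 0 could be tested. These were miR-878, on 1 vehicle, 1 day 4 and 2 day 6 arrays, and miR-743a-3p, on 1 day 4 and 2 day 6 arrays. Neither was detected at day 2, where miR-465-5p was detected on 5 of 5 arrays.

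A low vehicle level is what the members were picked for, and probes of different miRNAs bind unequally, so their neighbours in vehicle level are named with no order of abundance. The neighbours of miR-465-5p, miR-194-3p at -5.82 ± 0.31 and miR-351-3p at -5.74 ± 1.37, differed from it by less than their spread (SD, n = 5). miR-338-5p, next above miR-489-3p, was at -5.38 ± 0.35, and miR-760-3p and miR-132-3p, next to miR-551b-5p, were at -5.15 ± 0.42 and -5.05 ± 0.48. None of these neighbours differed from its member beyond the spread.

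The tested miRNAs whose levels ran most like each member over the 20 arrays are given as a description, since all share array, scaling and slide. For miR-465-5p they were miR-23a-5p (Pearson's r = 0.86), miR-341 (0.82) and miR-3562 (0.77). For miR-551b-5p they were miR-212-3p (0.81), miR-23a-5p (0.80) and miR-3573-3p (0.80). For miR-489-3p the closest were miR-877 (0.59), miR-21-3p (0.57) and miR-191a-5p (0.54). After subtracting each group's mean, r was 0.58 between miR-465-5p and miR-23a-5p and 0.83 between miR-551b-5p and miR-212-3p, but -0.04 between miR-489-3p and miR-21-3p. Among themselves the members correlated at 0.69 (miR-465-5p with miR-551b-5p), 0.40 (miR-465-5p with miR-489-3p) and 0.51 (miR-551b-5p with miR-489-3p). Within groups those values were 0.09, -0.48 and -0.13.

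Markers of other cell types were read on the same arrays, and their part in the members' values was not tested. The summed scaled level of 6 leukocyte miRNAs, 5 of them on the array and detected, was 3.35 to 3.44 in vehicle and 2.76 to 3.17, 2.27 to 3.03 and 2.26 to 3.09 at day 2, 4 and 6. The sum was thus lower on every AAI array than on any vehicle array, but the listed miRNAs did not all follow it. At day 6 only miR-146a-5p lay wholly below vehicle, at 0.837 to 1.07 against 1.42 to 1.72. The ranges of miR-142-3p, miR-142-5p, miR-150-5p and miR-223-3p overlapped vehicle there, and miR-223-3p reached 0.814 against at most 0.554. The sum of 4 erythrocyte miRNAs, 3 on the array and 2 detected, was 0.408 to 1.35 in vehicle, 0.554 to 1.27 at day 2, 0.306 to 0.673 at day 4 and 0.0517 to 0.198 at day 6. Sums of 7 muscle miRNAs (4 detected) overlapped between vehicle, at 0.375 to 0.469, and each AAI day, at 0.338 to 0.494. In that list miR-206-3p was higher in AAI kidneys, with a mean signal of 2.88 ± 2.05 in vehicle and 7.81 ± 3.18, 11.2 ± 4.15 and 11.2 ± 6.04 at day 2, 4 and 6. It was detected on 0, 1, 2 and 2 of 5 arrays, and after scaling every AAI array lay above every vehicle array (at least 0.0119 against at most 0.0116). From the same list miR-1-3p, miR-208a-3p and miR-208b-3p were detected on 0 arrays.

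Among the AAI groups, day 4 alone was split between slides, with 3 arrays on slide 1 and 2 on slide 2. Vehicle and AAI arrays shared a slide only through vehicle array 5, the single vehicle array on slide 2. On it miR-465-5p was at 8.78, inside the 3.11 to 9.69 of the 4 vehicle arrays on slide 3. miR-489-3p was at 8.48, also inside their range, and miR-551b-5p was at 7.57, just below them. Against this 1 array, the day 2 kidneys of the same slide differed by 1.11 for miR-465-5p, 1.71 for miR-551b-5p and 0.27 for miR-489-3p on the log2 scale. The 2 day 4 kidneys on that slide differed by 1.42, 1.79 and 0.41. Day 6 shared no slide with vehicle, and there the values with slide as a fixed block, which pass through day 4, were 1.58, 2.17 and 0.16.

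The size of each difference, and for miR-489-3p its sign, changed with the way the weak signals were corrected for background. Subtracting the local background in place of the software's own left the never-detected miRNAs at a median of 28.5 to 34.7 units per array, where the software's subtraction left them at -2.32 to 0.00664. On that pedestal miR-465-5p differed from vehicle by 0.25, 0.25 and 0.30 on the log2 scale and miR-551b-5p by 0.24, 0.23 and 0.46 at day 2, 4 and 6. miR-489-3p turned to -0.24, -0.26 and -0.22, where the median over all 262 tested miRNAs was -0.11, -0.17 and -0.18. These are values after scaling, and do not mean dimmer spots. Before subtraction and scaling the spots of miR-489-3p were brighter than in vehicle by 0.268, 2.11 and 2.99. Under normexp correction with an offset of 50, the members' differences lay between -0.18 and 0.16. The median over all 262 was then -0.12, -0.08 and -0.10. On the deposited log2 table, whose making is not given in the sources used here, miR-465-5p stood at the array's lowest value on 4 of 5 vehicle arrays and miR-551b-5p on 3 of 5. miR-489-3p there ranged from 0.955 to 2.11 in vehicle, 1.53 to 2.05 at day 2, -3.06 to 1.26 at day 4 and -2.53 to 2.74 at day 6, so that its AAI day 4 and day 6 kidneys reached below vehicle.

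**Figure D4:**
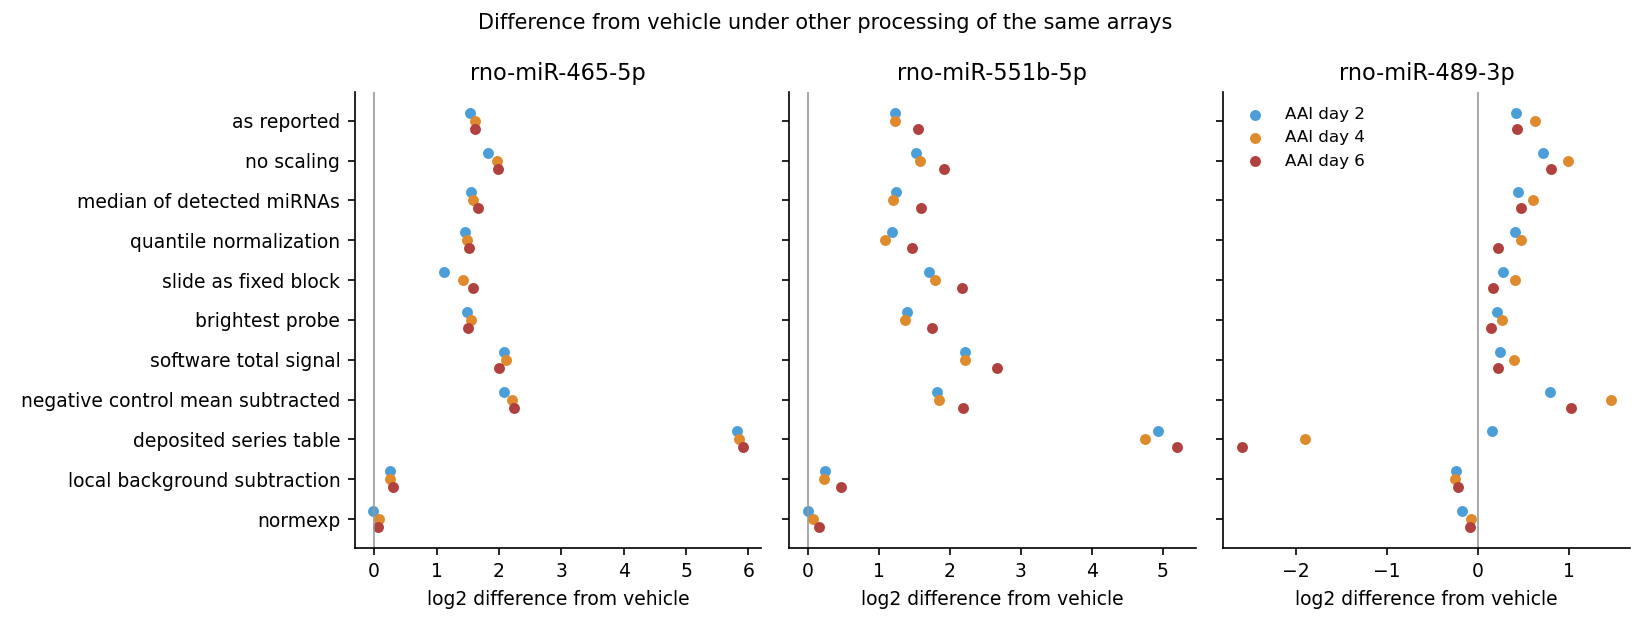
log2 difference from vehicle of each miRNA at AAI day 2, 4 and 6 (colours) when the same arrays were processed in 11 ways; the vertical line marks 0 and the horizontal scales differ between panels. miR-465-5p and miR-551b-5p stay above 0 except under normexp at day 2 (-0.01 and -0.0044), while miR-489-3p lies on both sides of 0.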

How the data were processed

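Per the labels' protocols, total kidney RNA carrying a Cy3 label went onto Agilent rat miRNA arrays. The authors scanned them with Feature Extraction 10.7.1.1 (build rn4), per the file headers. What they deposited per spot is a background-subtracted intensity in arbitrary units. Other deposited columns flag detection and outliers as 0 or 1. A deposited table of the series gives log2 levels; across miRNAs it correlated at 0.936 to 0.991 with the scanner values of the same array and served as an alternative.

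Flagged spots were left out unless all of a probe were flagged. Spots were averaged per probe and probes summed per miRNA. Sums were divided by the 75th percentile over the 231 miRNAs detected on all arrays, floored at 0.0064 (0 member values lay there) and put on a log2 scale. Testing took in 262 miRNAs, those that some group had detected on each of its 5 arrays, with limma 3.58.1 run in R 4.3.3 (16 residual and 2.17 prior degrees of freedom). The p-values were adjusted by Benjamini-Hochberg over them, two-sided. Array-level measures used exact permutation tests. The fit was tested on simulated data. The number of arrays limits the precision.

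The members, lists and tests were chosen with earlier results of these data known. The named miRNAs were the members, their opposite arms, cluster and family miRNAs, the 3 most correlated tested miRNAs and the neighbours in vehicle level; miR-551a is not analysed here. Replicate numbers did not pair the samples: same-numbered arrays correlated at -0.621 to 0.659 in their deviations. The labels give 5 rats a group, and nothing more on how they were kept. The alternatives covered background, scaling, probe summary, detection filter, variance model, slide and single arrays. The subtracted background, the negative control subtraction and the slide block without day 4 array 2 were added after seeing the data.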

Additional observations from a re-analysis of the deposited data

Results flagged for a closer look

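Among 60 groups of 5 arrays checked for a value far from the rest, 2 held one, where chance alone gives about 1 in 20. The 17-base probe of miR-489-3p read 10.2 on vehicle array 5, against 7.52 to 8.18 on the other vehicle arrays. That array is the single vehicle array on slide 2, and without its reading every AAI array would lie above vehicle on this probe. The median signal of never-detected miRNAs was -0.947 on vehicle array 4, against -1.97 to -1.69 on the other vehicle arrays.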

How the results depend on the processing

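Of 371 values recomputed for the comparisons, 327 stayed the same by the rule for their kind. Array measures had to stay on their side of the threshold and counts of members close to the first count. Median differences had to keep their sign and stay within 1 SD. Of 648 values of single members, 560 stayed the same. A called member had to keep its sign and call, and an uncalled one had to stay uncalled and within 1 SD. An uncalled value could thus change sign and still count as the same. Differences between AAI days, none of them called, changed sign in 48 of 294. The median member difference, 1.22, 1.22 and 1.55 at day 2, 4 and 6, was 4.94, 4.75 and 5.20 on the deposited table and 0.24, 0.23 and 0.30 with local background subtraction. It was 2.07, 2.11 and 2.00 with the software's total signal and -0.012, 0.068 and 0.067 with normexp. With negative controls subtracted, an alternative added after seeing the data, it was 1.82, 1.84 and 2.19, and unscaled it was 1.92 at day 6. Signs turned under normexp for miR-465-5p (-0.012) and miR-551b-5p (-0.0044) at day 2 and for miR-489-3p at day 4 (-0.079) and day 6 (-0.087). For miR-489-3p they also turned on the deposited table (-1.90 and -2.60) and with local background (-0.26 and -0.22). At day 2, where it was not called (0.42), miR-489-3p was -0.24 with local background and -0.18 with normexp. Why they turned on the deposited table was not tested.

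Of the members called, 2, 3 and 3 at day 2, 4 and 6, 0 remained at day 2 with local background, normexp, quantile normalization, no detection filter, or slide as a fixed or random block. Of all 262 tested miRNAs, 0 were called higher at day 2 with local background, normexp or either slide block. With quantile normalization 2 of 262 were, and with no detection filter 3 of 719. The same 0 came with slide fixed and day 4 array 2 left out, where 0 of all 262 were called higher. With the replicate block 0 passed at day 2, although the differences were as before, and 2 of all 262 were called higher. With only the 2 groups fitted 1 passed, and 5 of all 262 were called higher. At day 4, 0 passed with local background, normexp, slide as a random block, and with slide fixed and day 4 array 2 left out. Of all 262, 1, 0, 3 and 0 were called higher in those settings, in that order. With slide fixed 1 passed, and 10 of all 262 were called higher. At day 6, 1 passed with local background or slide fixed, where 11 and 30 of all 262 were called higher. None (0) passed with normexp or with slide fixed and day 4 array 2 left out, where 5 and 0 of 262 were.

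Leaving out 1 array gave 0 to 2 member calls at day 2. It gave 3 to 3 at day 4 and 2 to 3 at day 6. How many of all tested miRNAs were called in the same fits is not given here. The AAI groups alone brought miR-465-5p and miR-551b-5p into the test, so these member counts support nothing, the unchanged count at day 4 included. The day 2 count was 0 without day 2 array 4 and 1 without vehicle array 1, 3, 4 or 5. The median signal of never-detected miRNAs at day 6 against vehicle ranged from 0.553 to 1.05. Its adjusted p was 0.0476 (exact permutation) without day 6 array 2. Within slide 2 the local background at member spots was higher than on vehicle array 5 by 2.51 at day 2 and 4.36 at day 4, against -0.293 and 1.22 over all arrays. Signal over background limits every value: in vehicle neither miR-465-5p nor miR-551b-5p was well above it.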
